A study of Mus musculus with 8 samples.

Results

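The enzyme genes of asparagine, proline and transsulfuration metabolism were described in mouse quadriceps femoris (QF), a large thigh muscle, with and without the mitochondrial co-chaperone gene Grpel1. The 8 genes were chosen by name, with earlier results of these data known, as Asns, Pycr1, Aldh18a1, Prodh, Cth, Cbs, Gpt2 and Glul. Of these, 7 were among the 14012 genes of the count table, and Cbs was not analysed here. RNA came from 4 Grpel1 skm-/- mice (knockout) and 4 Grpel1 flox/flox mice (control), with 1 library per mouse. Both groups carried the floxed Grpel1 gene, and the knockouts also carried a Cre recombinase that is driven by the human skeletal actin promoter and switched on by tamoxifen, which was given to young mice. The age at sampling is not stated in the labels, and whether the 4 control mice received tamoxifen is not stated for these libraries, so effects of the deletion, the Cre and tamoxifen cannot be told apart. The knockout is limited to cells in which that promoter is active, and each library holds the RNA of the whole muscle.

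Asparagine synthetase, encoded by Asns, makes asparagine from aspartate with glutamine as the nitrogen donor. Proline is built from glutamate through pyrroline-5-carboxylate (P5C) by the enzymes of Aldh18a1 and Pycr1, and is broken down to P5C again by the enzyme of Prodh, all inside mitochondria. Transsulfuration turns homocysteine into cysteine in successive steps, by the enzymes of Cbs and then Cth. Gpt2 encodes mitochondrial alanine aminotransferase and Glul encodes glutamine synthetase, which makes glutamine from glutamate and ammonia. Asns, Aldh18a1, Pycr1 and Cth are textbook targets of ATF4, a transcription factor of the integrated stress response (ISR), which binds with C/EBP family partners at a composite DNA element.

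The control libraries held 16.0 to 18.8 M reads on the listed genes and the knockout libraries 16.4 to 20.4 M. Levels are given as CPM (counts per M reads, M being 1e6) after scaling for library composition. The whole-gene count of Grpel1 was 64.1 to 71.2 CPM in the control mice and 59.9 to 71.9 CPM in the knockouts, so it does not check the labels, and every direction below rests on them. Skeletal muscle markers summed to 217150 to 276990 CPM in the control mice and 77611 to 108410 CPM in the knockouts. Of 10 markers, 7 were lower, among them Myh4 (log2 fold change -2.34), and 2 were higher, Myh1 (1.15) and Des (0.82). In bulk muscle, fewer cells of a type and less RNA per cell cannot be told apart. Summed markers ranged from 1040 to 5080 CPM in the control mice and 1354 to 3725 CPM in the knockout mice for adipocytes (0 of 9 past the threshold), and from 80.3 to 208 CPM and 166 to 309 CPM for macrophages (1 of 9 higher). Among the adipocyte markers Car3 had the highest mean, 1710 CPM for controls and 864 CPM for knockouts. Only Car3 of that list had a negative log2 fold change (-0.98), and the list median was 0.69. Summed markers of fibroblasts were 1802 to 2664 CPM and 714 to 1097 CPM (5 of 9 lower). Those of endothelium were 294 to 438 CPM and 213 to 242 CPM (6 of 7 lower). Those of satellite cells and myoblasts were 25.7 to 32.1 CPM and 102 to 168 CPM (2 of 5 higher, 1 lower). In this last sum Myog rose from a mean of 6.59 to 103 CPM. Myf5 was also higher, Calcr was lower, and Pax7 and Myod1 did not pass the threshold. No marker of these lists was at 0 in any library. With the adipocyte markers as a covariate, the 7 enzyme genes kept their direction and call, and the part of the other markers in the results below was not tested.

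Of the 7 measured enzyme genes, 5 were higher in the knockouts (Asns, Cth, Aldh18a1, Pycr1 and Prodh), 1 was lower (Gpt2), and Glul did not pass the threshold, an adjusted p under 0.01 in the quasi-likelihood test of edgeR (Benjamini-Hochberg over all genes). Over all 14012 genes the same test called 44.7% in either direction, 23.6% higher and 21.1% lower. The median log2 fold change of the 7 genes was 2.71, beside 0.065 over all genes. The groups did not overlap for 6 of the 7 genes, beside 53.4% of all genes. The genes were chosen with earlier results of these data known, so these comparisons with all genes describe them and test nothing.

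**Figure D1:**
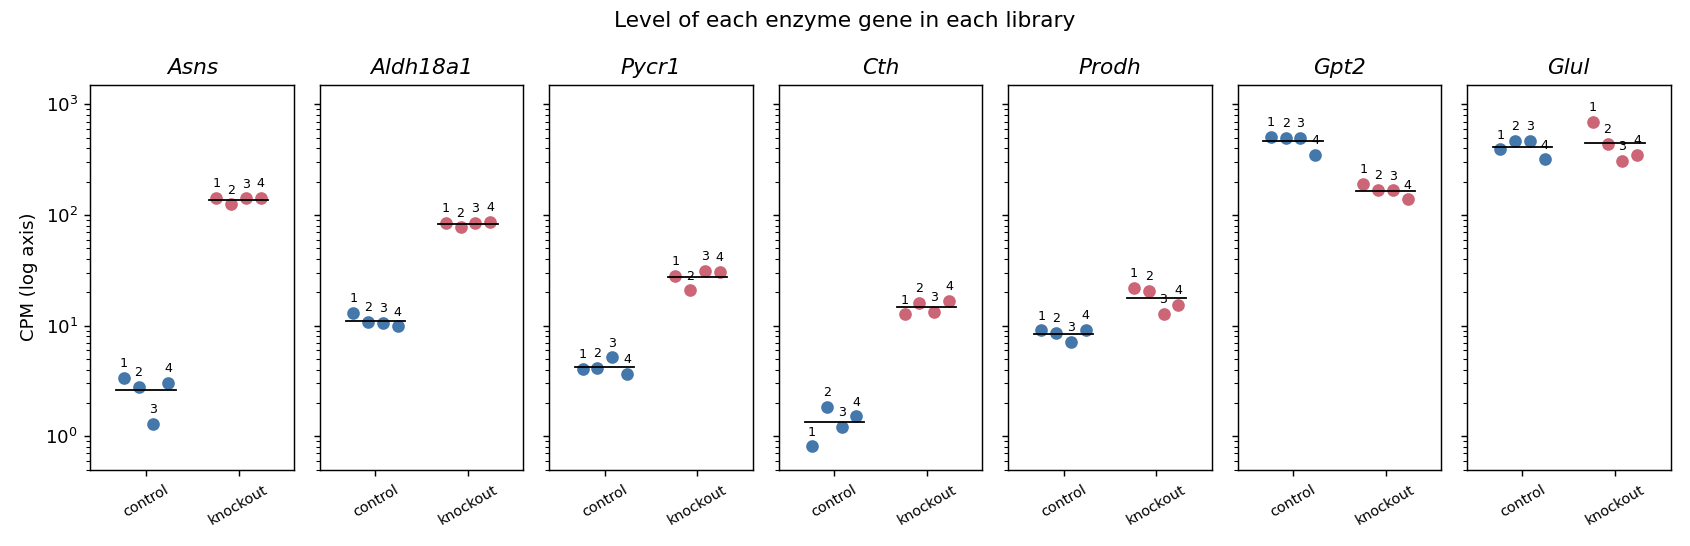
CPM on a log axis of the 7 measured enzyme genes in each library, with controls in blue, knockouts in red, the replicate number at each point and the group mean as a black line. Asns lay between 125 and 143 CPM in all 4 knockouts and between 1.29 and 3.39 CPM in the controls, while the points of Glul overlapped.

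The promoters of Asns and Pycr1 are shown because they were the members whose window held the core of the C/EBP-ATF composite element. The letters searched were TGATGNAA, on both strands (TTNCATCA on the other), in the 250 bases before each RefSeq gene start on GRCm38.p6. The search covered 6 of the 7 measured genes, since Cth had no entry, and found the core in 2. The windows of Aldh18a1, Prodh, Gpt2 and Glul did not contain these letters. Among all 32851 promoter windows of that length, 1134 (3.45%) contained the core. The last 150 bases before the start are printed 5′ to 3′ on the gene's own strand, with the core in capitals, from chr6:7693210-7693359 (minus strand) for Asns and from chr11:120643749-120643898 (minus strand) for Pycr1.
Asns: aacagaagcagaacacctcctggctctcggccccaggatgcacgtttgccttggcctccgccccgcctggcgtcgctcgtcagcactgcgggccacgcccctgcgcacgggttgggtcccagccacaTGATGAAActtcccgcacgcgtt
Pycr1: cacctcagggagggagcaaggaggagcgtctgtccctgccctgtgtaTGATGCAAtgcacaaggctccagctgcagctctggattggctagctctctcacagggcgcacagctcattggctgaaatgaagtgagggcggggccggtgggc
The core began 23 bases before the RefSeq start of Asns and 103 bases before that of Pycr1. A match to these letters is a description of the sequence, and binding was not measured.

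Asns (Entrez Gene 27053, chromosome 6 from 7675171 to 7693182, minus strand) went from a scarcely detected transcript to an abundant one. The 4 controls had 3.39, 2.81, 1.29 and 3.02 CPM, from 18 to 48 reads each. The 4 knockouts had 143, 125, 141 and 143 CPM, from 2719 to 3598 reads each. Every knockout lay far above every control, and the knockouts differed among themselves by a coefficient of variation of 6.49%. The mean rose from 2.63 ± 0.926 to 138 ± 8.94 CPM (SD, n = 4 each), or by 5.71 on the log2 scale (SE 0.20, adjusted p = 6.9e-08, edgeR), which is 52.4-fold. By size this was the 51st highest log2 fold change of the 14012 genes.

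Of the asparaginase genes, 1 fell and 1 did not pass the threshold. Asrgl1, whose product splits asparagine and isoaspartyl peptides, fell from 64.5 ± 6.06 to 33.9 ± 3.47 CPM, a log2 fold change of -0.93 (adjusted p = 2.1e-05, edgeR). Aspg, which encodes another asparaginase, had 2.42, 5.37, 0.358 and 6.55 CPM in control replicates 1 to 4 and 41.1, 23.8, 2.15 and 9.26 CPM in knockout replicates 1 to 4. Its groups overlapped, and its log2 fold change of 2.34 (95% confidence interval 0.46 to 4.23) had an adjusted p of 0.035. Replicate 3 had the lowest Aspg value in each group and also the lowest adipocyte marker sum, 1040 CPM in the control mice and 1354 CPM in the knockouts, and the part of adipocyte RNA in Aspg was not tested. The transaminases of Got1 and Got2, which supply aspartate, had log2 fold changes of 0.30 and 0.13 and did not pass the threshold (adjusted p = 0.062 and 0.21, edgeR).

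Both proline-building genes rose. Aldh18a1 (Entrez Gene 56454, chromosome 19 from 40550257 to 40588463, minus strand), which encodes the P5C synthase, had 12.9, 10.8, 10.6 and 9.83 CPM in the controls. It had 85.4, 77.3, 85.5 and 86.9 CPM in the knockouts, all above the highest control. The mean rose from 11.0 ± 1.33 to 83.8 ± 4.36 CPM, a rise of 2.93 on the log2 scale (SE 0.092, adjusted p = 3.8e-08, edgeR), or 7.61-fold.

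Pycr1 (Entrez Gene 209030, chromosome 11 from 120635712 to 120643670, minus strand) encodes a mitochondrial reductase that finishes proline from P5C. It had 4.04, 4.12, 5.15 and 3.65 CPM in the control mice and 27.9, 20.8, 31.4 and 30.6 CPM in the knockout mice. The groups were apart, with knockout replicate 2 the lowest of the knockouts, as it also was for Asns and Aldh18a1. The mean rose from 4.24 ± 0.640 to 27.7 ± 4.83 CPM, a rise of 2.71 on the log2 scale (SE 0.16, adjusted p = 7.2e-07, edgeR), or 6.53-fold.

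Another P5C reductase gene, Pycr3, listed under its older symbol Pycrl, rose from 7.01 ± 0.300 to 11.0 ± 0.943 CPM, a log2 fold change of 0.65 (adjusted p = 3.1e-04, edgeR).

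Prodh (Entrez Gene 19125, chromosome 16 from 18071726 to 18089190, minus strand) encodes proline dehydrogenase, which opens proline breakdown. It had 9.05, 8.64, 7.09 and 9.14 CPM in control replicates 1 to 4 and 22.1, 20.7, 12.7 and 15.3 CPM in knockout replicates 1 to 4. The groups did not overlap, but the knockouts were spread more widely than for Asns or Aldh18a1, with a coefficient of variation of 24.9%. The mean rose from 8.48 ± 0.953 to 17.7 ± 4.40 CPM, a rise of 1.06 on the log2 scale (SE 0.18, adjusted p = 6.0e-04, edgeR), or 2.08-fold. Replicate 3, with the lowest adipocyte marker sum of each group, also had the lowest Prodh value of each group, and with those markers as a covariate the log2 fold change was 0.87 (adjusted p = 0.0019, edgeR). Aldh4a1, whose enzyme carries P5C on to glutamate, fell from 193 ± 27.1 to 71.3 ± 6.93 CPM, a log2 fold change of -1.43 (adjusted p = 3.7e-06, edgeR). Oat, whose enzyme links P5C with ornithine, fell from 208 ± 19.0 to 103 ± 11.3 CPM, a log2 fold change of -1.02 (adjusted p = 1.4e-05, edgeR).

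Cth (Entrez Gene 107870, chromosome 3 from 157894248 to 157925063, minus strand) encodes cystathionine gamma-lyase, which releases cysteine from cystathionine. It had 0.808, 1.83, 1.22 and 1.51 CPM in the controls, from 10 to 28 reads each. It had 12.6, 16.0, 13.3 and 16.8 CPM in the knockouts, from 303 to 423 reads each, so the groups were far apart. The mean rose from 1.34 ± 0.436 to 14.7 ± 2.03 CPM, a rise of 3.42 on the log2 scale (SE 0.20, adjusted p = 7.9e-07, edgeR), or 10.7-fold. With so few control reads the size of the fold is less exact than that of Aldh18a1.

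Gpt2 (Entrez Gene 108680, chromosome 8 from 85492617 to 85527558, plus strand) moved the other way. It had 513, 500.1, 497 and 352 CPM in control replicates 1 to 4 and 192, 168, 167 and 138 CPM in knockout replicates 1 to 4. All knockouts lay below the lowest control, and replicate 4 was the lowest in both groups. The mean fell from 466 ± 75.7 to 166 ± 21.8 CPM, a change of -1.49 on the log2 scale (SE 0.14, adjusted p = 1.1e-05, edgeR), or 2.80-fold lower. Gpt, which encodes the cytosolic alanine aminotransferase, had 30.7 ± 3.70 CPM in the control mice and 33.0 ± 6.03 CPM in the knockouts (log2 fold change 0.10, 95% confidence interval -0.21 to 0.41, adjusted p = 0.54, edgeR). Per kilobase of exon, which allows levels of different genes to be compared, the Gpt2 share of the summed level of both genes fell from 88.1% ± 2.33 to 71.5% ± 3.69, by -16.6 percentage points (two-sided exact permutation p = 0.0286, the smallest that 4 against 4 libraries allow).

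**Figure D2:**
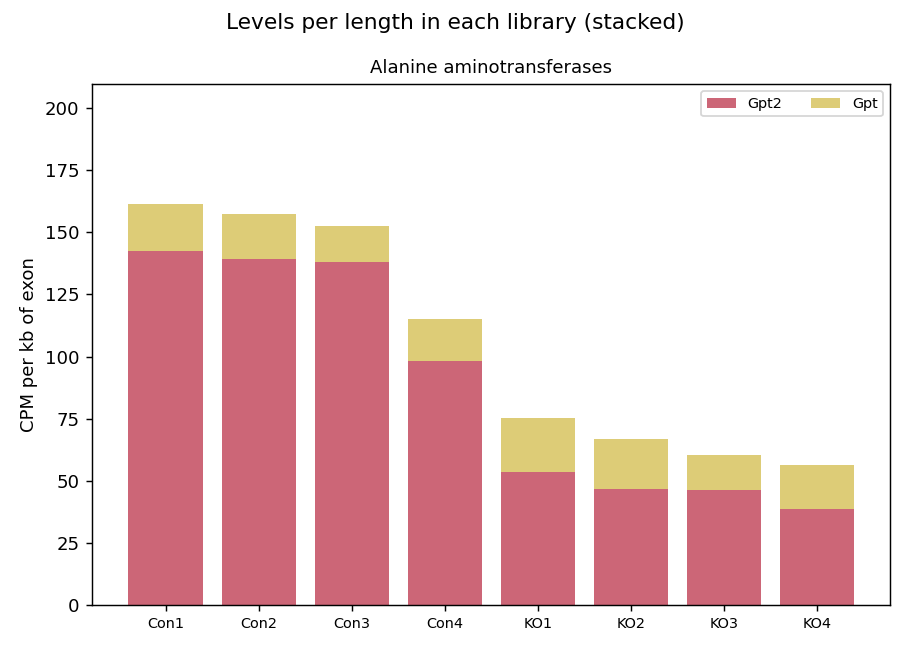
Stacked levels in CPM per kilobase of exon of the alanine aminotransferase genes Gpt2 and Gpt in each library, Con1 to Con4 being controls and KO1 to KO4 knockouts. The Gpt2 segment was 85.0% to 90.7% of the stack in control muscle and 68.2% to 76.8% in knockout muscle.

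Glul (Entrez Gene 14645, chromosome 1 from 153899929 to 153909723, plus strand) was high in every library and variable among the knockouts. It had 391, 465, 472 and 318 CPM in control replicates 1 to 4 and 691, 443, 308 and 351 CPM in knockout replicates 1 to 4. The groups overlapped, with the highest and the lowest value of the gene both in knockouts. The mean was 412 ± 72.1 CPM in the control mice and 448 ± 171 CPM in the knockouts, a log2 fold change of 0.12 (95% confidence interval -0.40 to 0.65, adjusted p = 0.67, edgeR). Without knockout replicate 1 the log2 fold change was -0.18, so the sign rests on that library.

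Levels of the 7 genes were then set in order per kilobase of exon. In the controls Glul (147 ± 25.7 CPM per kilobase) and Gpt2 (129 ± 21.1) stood far above Prodh (3.71 ± 0.418), Aldh18a1 (3.13 ± 0.376), Pycr1 (1.46 ± 0.220), Asns (1.36 ± 0.481) and Cth (0.745 ± 0.242). The libraries of Glul and Gpt2 overlapped, as did those of Prodh and Aldh18a1, of Pycr1 and Asns, and of Asns and Cth. In the knockouts Glul (160 ± 61.1 CPM per kilobase) was followed by Asns (71.5 ± 4.64), Gpt2 (46.2 ± 6.07) and Aldh18a1 (23.8 ± 1.24), with no overlap between neighbours. Pycr1 (9.50 ± 1.66), Cth (8.16 ± 1.13) and Prodh (7.75 ± 1.93) came last and overlapped their neighbours. Asns thus stood sixth of the 7 genes in the controls and second in the knockouts.

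**Figure D3:**
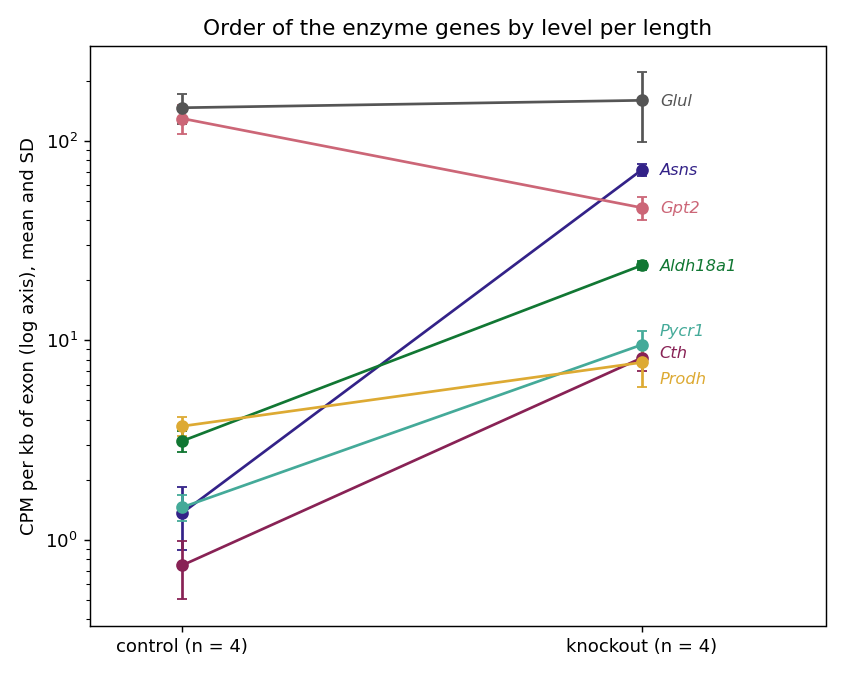
Mean level of the 7 enzyme genes in CPM per kilobase of exon on a log axis in controls and knockouts (n = 4 each), with the SD as error bars and a line joining the means of a gene. Asns crosses from 1.36 to 71.5 and passes Gpt2, which goes from 129 to 46.2.

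The wider pathways were read from lists that include these genes. The shares over all genes to set beside their counts are 23.6% higher and 21.1% lower, or 44.7% in either direction. Of 23 measured enzymes of asparagine, aspartate, glutamine and glutamate (26 listed), 5 were higher, 5 lower and 13 did not pass the threshold, and the median log2 fold change was 0.10, beside 0.065 over all genes. Those higher by more than 2-fold beside Asns were Ass1, which joins citrulline with aspartate (log2 fold change 2.40, from 1.18 ± 0.523 to 6.35 ± 0.739 CPM), and Acy3, an acyl-amino acid hydrolase gene (1.26, from 1.71 ± 0.252 to 4.11 ± 0.459 CPM). Asl, whose product acts after that of Ass1, also rose, by a log2 fold change of 0.79, as did Cad, whose product uses glutamine and aspartate to open pyrimidine synthesis, by 0.82. Adssl1, the muscle adenylosuccinate synthase gene whose product uses aspartate, was the other gene beside Gpt2 to fall by more than 2-fold (log2 fold change -1.15, from 1266 ± 82.4 to 571 ± 54.7 CPM). Ppat, which uses glutamine to open purine synthesis, fell by 0.82 on the log2 scale.

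Of 15 measured genes of proline, ornithine and arginine metabolism (19 listed), 7 were higher, 5 lower and 3 did not pass the threshold, and the median log2 fold change was 0.59. Leaving out Aldh18a1, Pycr1 and Prodh, which are described above, 12 genes remained. Of that remainder, 4 rose and 5 fell past the threshold, and its median was 0.20. Gatm, whose enzyme starts creatine synthesis from arginine and glycine, rose from 7.97 ± 3.64 to 36.0 ± 11.5 CPM (log2 fold change 2.18, adjusted p = 3.8e-04, edgeR). Hoga1, of hydroxyproline breakdown, rose by 1.49 on the log2 scale, with 1.29 ± 0.629 CPM in the controls. Xpnpep1, a peptidase gene whose product removes residues ahead of proline, rose by 0.59. The collagen prolyl hydroxylase subunit genes P4ha1 and P4ha2 had log2 fold changes of -1.84 and -1.07, and the fibroblast markers, which include the collagen genes Col1a1, Col1a2 and Col3a1, had 5 of 9 lower and a median of -0.79. The part of fibroblast RNA in P4ha1 and P4ha2 was not tested. Arg1, which encodes an arginase, had at most 1 read in a control. Knockout replicates 1 to 4 had 5, 140, 3 and 5 reads, so its rise rests mainly on knockout replicate 2. Arg1 did not pass the threshold (adjusted p = 0.034, edgeR). Odc1, which makes putrescine from ornithine, had a log2 fold change of -0.87 (adjusted p = 0.0033, edgeR).

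Of 26 measured genes of the methionine cycle, transsulfuration, cysteine and sulfide metabolism (30 listed), 8 were higher, 11 lower and 7 did not pass the threshold, and the median log2 fold change was -0.02. Beside Cth, more than 2-fold higher were Gnmt, a glycine methyltransferase gene of the methionine cycle (log2 fold change 2.86, from 0.797 ± 0.388 to 5.79 ± 3.76 CPM, adjusted p = 0.0011), and Gss, the glutathione synthetase gene (1.04, from 9.98 ± 0.785 to 20.5 ± 1.56 CPM, adjusted p = 8.8e-06, edgeR). Among those lower were Sqrdl, whose mitochondrial enzyme oxidises sulfide (log2 fold change -1.46), Mpst (-1.18) and Ethe1 (-0.65), both of sulfur metabolism as well, and Ado, a thiol dioxygenase gene (-0.66). Of the methionine salvage genes, Adi1 (-1.70), Enoph1 (-0.64), Mtap (-0.58) and Apip (-0.39) were lower. Mri1 of the same pathway had a log2 fold change of 0.10 and did not pass the threshold (adjusted p = 0.46, edgeR). Apip and Mri1 were named after their values were seen.

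Scaling by library totals alone moved the median of all genes from 0.065 to 0.73 and the split of these lists to 12 higher and 3 lower, 8 higher and 4 lower, and 14 higher and 3 lower, in the order given. A change of scaling shifts all genes by nearly the same amount. Set against the median of all genes, the 7 enzyme genes were therefore bound to be close under both scalings. The values were 5.64 and 5.65 for Asns and -1.55 and -1.55 for Gpt2, and this closeness is no check of the scaling.

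**Figure D4:**
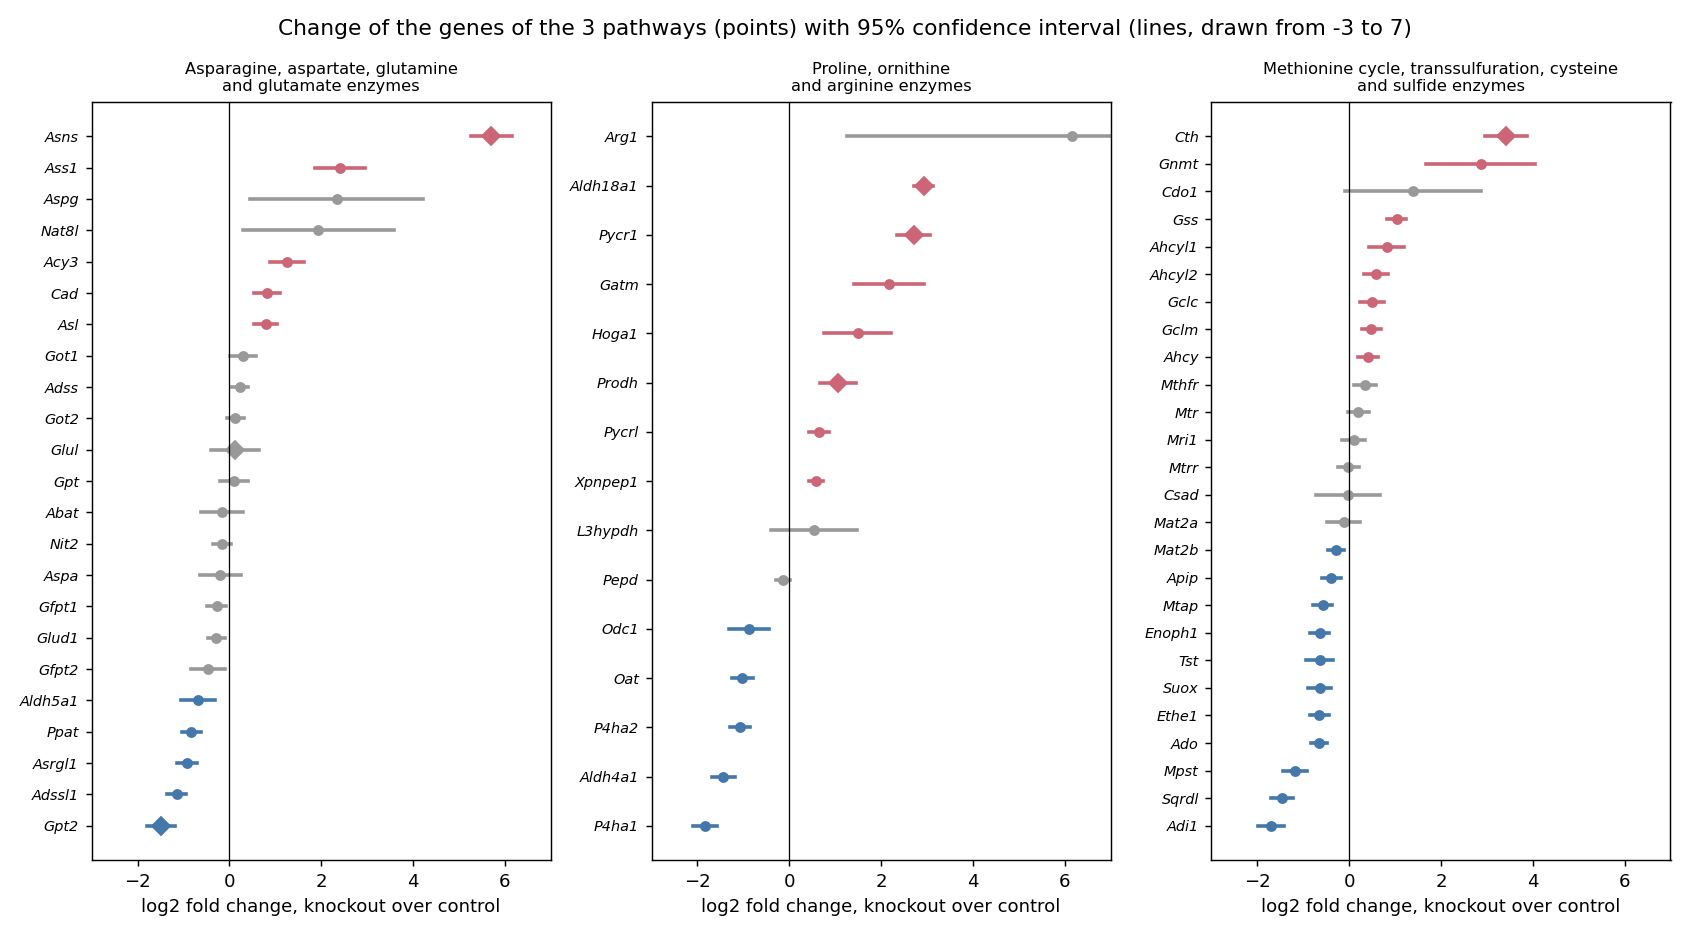
Log2 fold change (knockout over control) of the measured genes of the 3 pathways, with the 95% confidence interval as a line drawn between -3 and 7. Red is higher and blue lower past the threshold, grey did not pass it, and diamonds mark the 7 enzyme genes, of which Asns lies at 5.71 and Gpt2 at -1.49.

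Regulators of the ISR that are known to act on several of these enzyme genes were measured in the same libraries. Of 10, 8 were higher and none lower, beside 23.6% higher and 21.1% lower over all genes. Their median log2 fold change was 1.50, beside 0.065 over all genes. This list, too, was chosen with earlier results of these data known. Atf4 rose from 173 ± 17.2 to 413 ± 35.7 CPM, a log2 fold change of 1.26 (adjusted p = 3.0e-06, edgeR). Its related factors Atf5 and Atf3 rose by 2.38 and 1.74 on the log2 scale, Ddit3 (which encodes CHOP) by 2.62, and the C/EBP genes Cebpb and Cebpg by 0.75 and 0.53. Trib3, a pseudokinase gene and itself an ATF4 target, rose from 1.16 ± 0.533 to 149 ± 9.73 CPM (log2 fold change 6.98), and Nupr1 rose by 2.21. Of the kinase genes whose products start the ISR, only Eif2ak3 and Eif2ak4 were in this list. They had log2 fold changes of 0.17 and -0.32 and did not pass the threshold (adjusted p = 0.24 and 0.068, edgeR). Counts of RNA do not measure the activity of these kinases.

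The genes whose log2 CPM profiles over the 8 libraries lay nearest to each enzyme gene were found by Euclidean distance after centring each gene on its own mean. For Asns these were Rasef (distance 0.705), Mthfd2, a mitochondrial folate enzyme gene (0.852), and Arhgap33 (0.921). The nearest gene was Gadd45a for Pycr1 (0.400), Spg21 for Aldh18a1 (0.292), Slc38a1, an amino acid transporter gene, for Cth (0.408), Syn2 for Prodh (0.241), Lifr for Gpt2 (0.227) and Noxred1 for Glul (0.335). For the enzyme genes past the threshold such a distance follows mainly the difference between the 2 groups. For Glul, whose groups overlapped, it follows mainly the spread among the libraries.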

How the data were processed

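Polyadenylated RNA of QF from 8 mice was sequenced as strand-marked libraries. Per the submitters' processing notes and the study's methods, the authors used bcl2fastq 2.20.0.422, cutadapt and STAR 2.5.4b on GRCm38, counted read pairs on exons without duplicate, chimeric or multimapping reads, and left out genes with few reads (the lowest total kept was 51). The annotation release and the strand setting of the counting are not given in the sources used here. The deposited table holds the raw counts used here, the authors' exon widths (another deposited value, used for levels per kilobase), the authors' DESeq2 1.32.0 comparison and 8 FPKM columns, of which the last 2 kinds were not used. No other gene span in the table overlapped those of the 7 enzyme genes.

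Counts of all 14012 genes were tested with edgeR 4.0.16 (R 4.3.3, limma 3.58.1) by glmQLFit and glmQLFTest after TMM scaling, with the group as the only term, at an adjusted p under 0.01. Means and SDs are of CPM over the scaled library sizes, and log2 CPM used a prior count of 2. For the Gpt2 share, all 70 ways to split the 8 libraries 4 and 4 gave an exact permutation p. The fit was also run on simulated data, drawn from the mean control profile with few genes changed, as many up as down. These data do not test the fit under a change as wide as the present one. Alternatives were DESeq2 1.42.0, other scalings, a low-count filter, another threshold, the replicate number as a block, adipocyte markers as a covariate and each library left out. The labels name no batch. Besides the replicate numbers they hold running sample numbers, which split by group, so an effect of that order cannot be told apart from the knockout. Within a group, pairs of libraries had a chi-square of 17.2 to 42.7 per degree of freedom, above counting error.

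The genes named are the 8 members, their paralogs and partner enzymes, in each pathway list those past the threshold that changed at least 2-fold and the 4 further genes with the smallest adjusted p, the ISR regulators, Grpel1, and the nearest profiles. A few cell type markers, Apip and Mri1 were named as well, after their values were seen. Members and lists were chosen with earlier results of these data known. A few genes of the lists, and a share of Pycr1 among related genes, are not reported here, and the lists were counted without those genes. Cbs, Prodh2, the liver markers and some other listed genes were not analysed here. Promoter sequences are RefSeq's.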

Additional observations from a re-analysis of the deposited data

Results flagged for a closer look

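Among the 16 sets of 4 libraries tested by Dixon's criterion, 3 held a library that stood apart from the other 3, where chance gives about 1 in 20. In knockout replicate 2, Asns was 125 CPM, below 141 to 143 CPM in the other knockouts and still far above the controls. In the same library Aldh18a1 was 77.3 CPM, below 85.4 to 86.9 CPM. This library had the fewest reads of the knockouts, 16.4 M (1 M being 1e6), and the part of depth was not tested. In control replicate 4, Gpt2 was 352 CPM, below 497 to 513 CPM in the other controls and above every knockout. Leaving out each library in turn kept the log2 fold change of Asns between 5.49 and 5.84, that of Aldh18a1 between 2.88 and 3.01 and that of Gpt2 between -1.60 and -1.43.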

How the results depend on the processing

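The 6 enzyme genes past the threshold kept their direction and call in 16 of 16 alternatives each, with ranges of the log2 fold change from 5.49 to 6.37 for Asns, 3.26 to 4.09 for Cth, 2.88 to 3.60 for Aldh18a1, 2.61 to 3.37 for Pycr1, 0.87 to 1.73 for Prodh and -1.60 to -0.81 for Gpt2. The alternative at an adjusted p under 0.05 reads the same fit, so it could not change the call of these 6 genes. Glul ranged from -0.18 (without knockout replicate 1, adjusted p = 0.37) to 0.80 (library totals alone, adjusted p = 0.0104, with the median of all genes at 0.73), with -0.18 to 0.23 over libraries left out, and passed the threshold in none. Leaving out each library in turn gave differences of -18.4 to -15.5 percentage points for the Gpt2 share, with an exact permutation p = 0.0571, the smallest that 3 against 4 libraries allow. At an adjusted p under 0.05, 16 genes of the asparagine list passed (8 higher, 8 lower). Over all genes 6265 passed by edgeR, 6731 by DESeq2, 9371 with library totals alone (8498 higher, 873 lower) and 5196 to 5867 with a library left out. Pairing by replicate number required every same-numbered pair to correlate above 0.1 in its deviations. This held in 3 of 4 pairs, up to 0.42, but pair 2 was at 0.00314, so the block was not used, although 3 of 4 controls correlated best with their own number. With the replicate block 6123 genes passed, 12 of them in the asparagine list (7 higher, against 10 with 5 higher), and no enzyme gene changed its call. Depth limits the low controls of Cth and Asns, at 10 to 48 reads.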
